A study of Mus musculus with 46 samples.

Results

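The oxidative phosphorylation genes described here are the nuclear genes whose symbols begin with Nduf, Uqcr or Atp5, or with Cox4 to Cox8 followed by a letter, together with Sdha, Sdhb, Sdhc, Sdhd and Cyc1. Symbols of pseudogenes were left out. The rule found 93 of the 21671 genes in the table. Of these, 83 encode structural subunits: 36 of complex I, 4 of complex II, 9 of complex III, 19 of complex IV and 15 of complex V. The other 10 are assembly or accessory factors (Ndufaf1 to Ndufaf7, Atp5s, Atp5sl and Cox7a2l) and were counted apart. RNA of FVB mice had been sequenced in 46 libraries: 11 of normal liver (control), 16 of tet-Myc liver tumours (Myc), 8 of tet-Myc tumours after 16 hours of doxycycline food, which switches the transgene off (Myc-off), and 11 of tumours with the V394D mutant of tet-Myc (MycVD). In the 3 tumour groups the transgene had been driven since before birth by LaptTA, a transactivator active in the liver. The sources used here give no ages. Tumours with the same ID were taken to come from 1 animal and were averaged, which leaves 11 control, 7 Myc, 3 Myc-off and 10 MycVD IDs. That an ID is an animal is an assumption, and where it is wrong the p-values measure a spread that may be technical.

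The respiratory chain passes electrons from NADH (complex I) and from succinate (complex II) through ubiquinone to complex III, then through cytochrome c to complex IV, which reduces oxygen. Complexes I, III and IV build a proton gradient that drives ATP synthesis by complex V. The liver depends on this system for urea synthesis, gluconeogenesis and the oxidation of fatty acids, and Myc is known to bind and activate many nuclear genes of mitochondrial function. The subunits made from mitochondrial DNA were not analysed here.

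Expression values are exonic RPKM (eRPKM), which are reads scaled for gene length and library depth. Depth, recovered from the steps between low values, was 3.25 to 12.6 M reads per library, with medians of 7.31 (control), 9.65 (Myc), 7.14 (Myc-off) and 7.81 M (MycVD). Subunit genes are short and abundant: 60 of the 83 averaged over 400 reads per kb, and Atp5b averaged 1174, while the most abundant gene over 500 bp stopped between 1460 and 2181 reads per kb in every library. Gapdh was at 15 to 27.1 eRPKM in 8 libraries (1 control, 5 Myc, 2 MycVD) and at 35.2 to 99.2 in the other 38. The median of the 75 common subunits was 101 eRPKM in the low-Gapdh control and 51.4 to 81.7 in the other controls, and 69.3 to 101 against 48.6 to 80.3 in Myc tumours. The low-Gapdh control, ID125322, also has the highest control value of many members given below. Among them are Ndufv1, Ndufs1, Sdha, Sdhb, Sdhc, Cox4i1, Atp5b, Uqcrq, Ndufaf5, Ndufaf6 and Ndufaf7. All 9 hepatocyte markers were lower in Myc tumours than in control liver, and their summed level was 426 to 703 eRPKM in Myc IDs against 988 to 1751 in control IDs. All 8 erythroid markers were higher, with sums of 49.8 to 275 against 20.3 to 40.1 eRPKM. Of 7 endothelial markers 5 were lower, with sums of 59.4 to 88 against 167 to 315 eRPKM. Over all genes tested in this comparison, 29.7% were lower and 50.4% higher. The 7 markers of exocrine pancreas summed to 10.9 to 50.2 eRPKM in Myc and 0 to 1.39 in control IDs, where 3 of them were at 0. The part of these cell types in the subunit results was not tested, and in tissue RNA fewer cells of a type cannot be told apart from less RNA per cell.

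Of the 83 subunit genes, 81 passed the filter of at least 1 eRPKM in at least 3 IDs. Cox7b2 and Cox8c, isoforms known from testis, did not. Cox7b2 reached 0.634 eRPKM in 1 control liver and was at 0 in all Myc-off and MycVD IDs. Cox8c was at 0 in all control livers and did not exceed 0.336 eRPKM elsewhere. Most other subunits were abundant. In control liver the median over the genes of a complex was, at the median ID, 60.5 eRPKM for complex I, 96.1 for complex II, 87.9 for complex III, 85.4 for the 11 common subunits of complex IV and 90.9 for complex V. In Myc tumours the same medians were 53.2, 68.2, 76.1, 74.4 and 75.1 eRPKM. Over control IDs the complex II median ran from 81.6 to 125 and over Myc IDs from 59.4 to 90.5, and for every complex these ranges overlap. Atp5b, the catalytic beta subunit of the F1 head of ATP synthase, had the highest mean of all members in each group: 156 ± 25.4 eRPKM in control (SD, n = 11), 124 ± 18.4 in Myc (n = 7), 163 ± 22.1 in Myc-off (n = 3) and 149 ± 21.5 in MycVD (n = 10).

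In Myc tumours more subunit transcripts were lower than higher against control liver, and the others were not called. Of the 81 tested subunits, 36 were lower, 6 higher and 39 not called (limma on log2(eRPKM + 0.5), Benjamini-Hochberg adjusted p under 0.05 over 14566 genes). Leaving out the tissue isoforms of complex IV, 36 of 75 common subunits were lower and 2 higher. Over all genes tested, 29.7% were lower, 50.4% higher and 80.0% called in either direction. The median log2 fold change of the subunits was -0.22, against 0.28 for all genes, and by complex it was -0.21 (I), -0.38 (II), -0.22 (III), -0.13 (IV) and -0.23 (V). The complex IV value includes 6 tissue isoforms, and for its 11 common subunits the median was -0.24. The subunits' median lay below that of all genes by 0.50, and below it in 15 of the 16 fits whose settings bear on this comparison; after quantile normalisation it lay 0.083 above. The count depends on scaling and depth: 64 were lower after median-ratio scaling, which moves the median of all genes to 0.05, 11 with read depth as a term, and 8 lower with 30 higher after quantile normalisation.

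In complex I, which oxidises NADH, 19 of 36 subunits were lower and 2 higher. Ndufv1, the core subunit with the FMN site, was at 95.7, 106 and 136 eRPKM (lowest, median and highest ID) in control liver and at 70.2, 74.2 and 90.1 in Myc tumours. The groups did not overlap, and Ndufv1 was lower in Myc tumours (log2 difference -0.47, SE 0.07, adjusted p = 2.9e-07), although this became 0.0077 after quantile normalisation. Ndufs1, the large core subunit with several iron-sulfur clusters, ran from 28.3 to 58.1 eRPKM in control and from 34.2 to 54.2 in Myc tumours, and its difference of 0.04 (SE 0.11) did not pass. Ndufv3, a small accessory subunit of the same module as Ndufv1, had the largest fall among the subunits: control IDs were at 45.1, 52 and 59.1 eRPKM and Myc IDs at 27.1, 30.1 and 34.8. There was no overlap, and the log2 difference was -0.73, SE 0.07, adjusted p = 1.7e-10. Ndufv3 passed in all 20 fits. So did 4 other supernumerary subunits: Ndufa1 (-0.55), Ndufa3 (-0.41), Ndufb3 (-0.45) and Ndufs5 (-0.54 on the log2 scale). These 4 were picked out, after their values were seen, from the subunits that passed in every fit. Their number of fits is therefore no further support. Fits that leave out only Myc-off libraries leave both groups unchanged here, and 16 of the 20 bear on this comparison. Ndufb9 was at -0.57 (SE 0.14), but 28.6% of its exon bases overlap another annotated gene, so reads of the pair may be shared.

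Complex II links the citric acid cycle to the chain. Its flavoprotein Sdha was at 84.3, 108 and 135 eRPKM in control IDs and at 62.7, 73.1 and 92.7 in Myc IDs. The ranges overlap at their ends, and Sdha was lower (log2 difference -0.55, SE 0.09, adjusted p = 1.1e-06). Sdhb, the iron-sulfur subunit, varied from 40.5 to 128 eRPKM in control liver alone. The highest value is that of the low-Gapdh ID125322, and the next control ID is at 84.9. The difference of Sdhb, -0.32 (SE 0.17), did not pass. The membrane anchor Sdhc, picked out after its values were seen, was at 79, 83.8 and 106 eRPKM in control and 56, 60.4 and 74.5 in Myc tumours, with no overlap (-0.44, SE 0.07, adjusted p = 2.9e-06).

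In complex III, 4 of 9 subunits were lower. Cytochrome c1, encoded by Cyc1, was at 85, 89.4 and 100 eRPKM in control and 73.3, 75.8 and 90.7 in Myc tumours (-0.16, SE 0.06, adjusted p = 0.024). The core protein gene Uqcrc1 was at -0.22 (SE 0.11) and did not pass. In complex V, 7 of 15 were lower, 4 of them among the 5 subunits of the catalytic F1 head. Atp5a1, its alpha subunit, was at 96.1, 133 and 144 eRPKM in control and 88.6, 99.8 and 127 in Myc tumours (-0.28, SE 0.09, adjusted p = 0.0052). Atp5b was at 111, 169 and 182 against 104, 121 and 159 (-0.32, SE 0.10, adjusted p = 0.0064). The groups overlap for both genes. With depth as a term the differences became 0.011 for Cyc1, 0.046 for Atp5a1 and 0.072 for Atp5b, and after quantile normalisation they were called higher, at 0.28, 0.26 and 0.27. Their direction rests on how depth and scaling are treated.

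Atp5g1, Atp5g2 and Atp5g3 encode the same mature subunit c of the rotor ring with different targeting sequences. Atp5g1 made up 32.4% ± 1.61 of their summed eRPKM in control liver (SD, n = 11), 30.5% ± 2.37 in Myc (n = 7), 30.8% ± 0.858 in Myc-off (n = 3) and 30.5% ± 1.68 in MycVD tumours (n = 10). Atp5g2 made up 27.5% ± 1.69, 30.4% ± 1.42, 30.6% ± 2.32 and 29.1% ± 1.36. Atp5g3 supplied the largest share in each group, at 40.0% ± 2.02, 39.1% ± 2.28, 38.6% ± 2.52 and 40.4% ± 1.30. Of the 3 genes only Atp5g1 was lower in Myc tumours than in control (-0.23 (SE 0.07)), and quantile normalisation put it at 0.21.

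**Figure D1:**
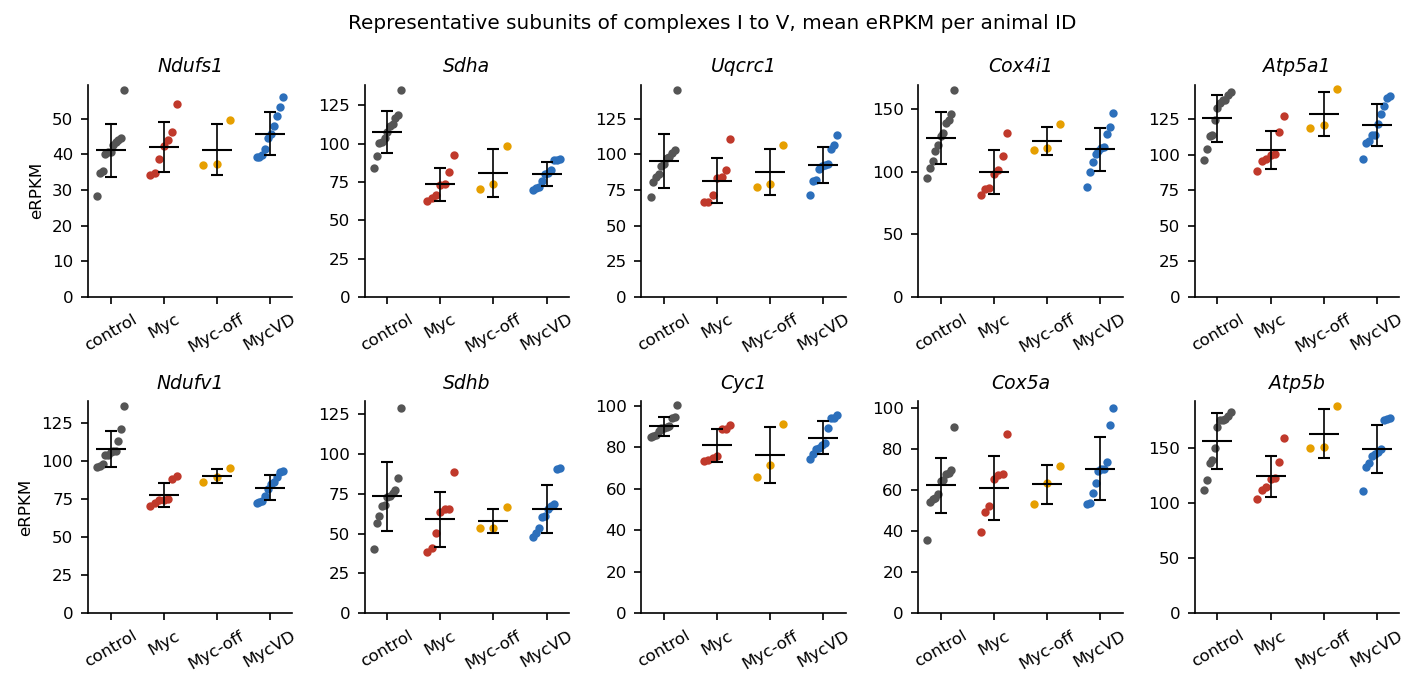
Level of subunit genes of complexes I to V by group, as mean eRPKM per animal ID (y axes from 0); each point is 1 ID, and black bars and whiskers are the mean and SD over IDs. Myc IDs of Ndufv1 sit between 70.2 and 90.1 eRPKM, below all control IDs, while Ndufs1 overlaps in all 4 groups.

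Of the 11 common subunits of complex IV, 4 were lower in Myc tumours. Cox4i1, the common isoform of a regulatory subunit, was at 95.1, 129 and 166 eRPKM in control and 81.7, 97.9 and 131 in Myc tumours (-0.35, SE 0.10, adjusted p = 0.0034). Cox6a1 was at -0.43 (SE 0.09), Cox8a at -0.36 (SE 0.08) and Ndufa4, now counted to complex IV, at -0.36 (SE 0.14). These 4 were above 0 after quantile normalisation. Cox5a (-0.04 (SE 0.15)) and Cox7a2 (-0.19 (SE 0.12)) were not called; 41.7% of the exon bases of Cox5a overlap a divergent noncoding gene, and the library kit does not mark strand.

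The tissue isoforms of complex IV, which replace a common subunit in muscle, testis or lung, were at low levels. Cox6a2, Cox8b and Cox4i2 passed the filter only through tumour IDs, so no count over the isoforms is given. The tests of these genes against control are descriptive, since the groups where they are high admitted them. Cox6a2, the isoform of heart and skeletal muscle, was at 0, 0.190 and 0.727 eRPKM in control IDs and at 3.72, 7.65 and 13 in Myc IDs. The groups did not overlap, and the log2 difference was 3.45, SE 0.25, adjusted p = 6.7e-14. Cox6b2, known from testis, was at 0, 0.855 and 2.06 eRPKM in control and at 3.10, 6.32 and 8.65 in Myc tumours, again without overlap (2.27, SE 0.29, adjusted p = 2.6e-08). Cox7a1, the muscle isoform of Cox7a, was at 1.41, 2.73 and 5.82 against 2.33, 5.36 and 9.07 eRPKM, with overlap (0.90, SE 0.26, adjusted p = 0.0027). Cox8b, also a muscle isoform, differed by 1.05 (SE 0.31) but reached at most 2.11 eRPKM. Both calls were lost after quantile normalisation (0.34 and 0.54) and with depth as a term (0.53 and 0.53), and they passed in 16 of 20 fits for Cox7a1 and 16 of 19 for Cox8b, which a stricter filter left untested. Cox4i2, the lung isoform (0.28 (SE 0.21)), and Ndufa4l2 (0.36 (SE 0.27)) were not called. Cox6a2 remained below its partner: the highest Myc ID of Cox6a2 was at 13 eRPKM and the lowest of Cox6a1 at 78.4.

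Cox6a2 also separated the other tumour groups. Myc-off IDs were at 2.54, 2.66 and 2.77 eRPKM, all below the lowest Myc ID (-1.26, SE 0.35, adjusted p = 0.0036), and MycVD IDs at 0.722, 2.08 and 6.08, which overlap Myc IDs (-1.44, SE 0.25, adjusted p = 0.0002). Cox7a1 went up instead in Myc-off tumours, to 9.06, 10.6 and 16.3 eRPKM (1.07, SE 0.38, adjusted p = 0.018); without ID150584 this was 0.83 (adjusted p = 0.11). Of 10 markers of skeletal muscle 4 passed the filter. In Myc-off against Myc tumours 1 of these 4 was higher and 1 lower, with log2 differences from -2.12 to 1.51. This is 25% each way, against 22.8% higher and 28.0% lower of all genes. The summed level of the 10 was 1.60 to 3.89 eRPKM in control, 13.6 to 28.6 in Myc, 6.94 to 31.6 in Myc-off and 5.22 to 13.4 in MycVD IDs. Pvalb was at 0 in all control, Myc-off and MycVD libraries and Myh4 in all Myc-off libraries. Ckm, the muscle creatine kinase, was at 0, 0 and 0.290 eRPKM in control, 6.81, 14.8 and 21.1 in Myc, 0.275, 1.09 and 24.7 in Myc-off and 0.0905, 1.10 and 3.02 in MycVD IDs. The part of muscle RNA in the isoform results was not tested.

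**Figure D2:**
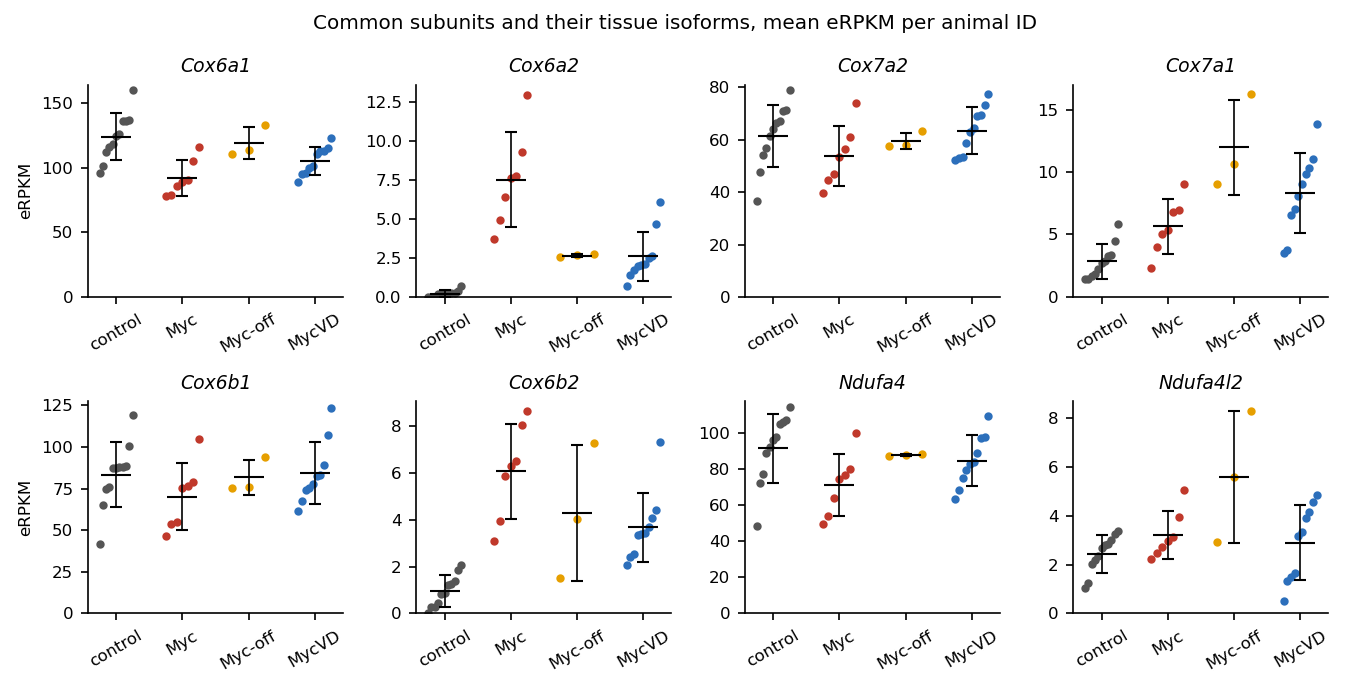
Common subunits of complex IV and their tissue isoforms, as mean eRPKM per animal ID (y axes from 0, each gene on its own scale); points are IDs, black bars and whiskers are the mean and SD. Cox6a2 reaches 13 eRPKM in Myc tumours and at most 0.727 in control liver, and Cox7a1 is highest in a Myc-off tumour ID.

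After 16 hours of doxycycline few subunit transcripts were called against the Myc tumours. This comparison and that of MycVD against Myc use the same Myc IDs as Myc against control. Opposite changes in them are not independent results. In Myc-off against Myc tumours, 10 of 81 subunits were higher and 2 lower, where 22.8% of all genes were higher, 28.0% lower and 50.7% called in either direction. The median log2 difference was 0.16 against 0 for all genes, and by complex 0.07 (I), 0.19 (II), 0.11 (III), 0.20 (IV) and 0.18 (V). With 3 Myc-off IDs the counts rest on single libraries: without ID150584, 2 were higher and 5 lower, and without the shallowest library of that ID (3.25 M reads) 4 were higher. Without the low-Gapdh libraries 24 were higher. Cell-type markers differed in the same comparison: 6 of 9 hepatocyte markers were higher, with sums of 893 to 997 eRPKM in Myc-off IDs against 426 to 703 in Myc IDs, and the 6 bile duct markers summed to 33.5 to 135 against 10.3 to 32.1 eRPKM. The part of these cell types in the results was not tested.

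Ndufv3 rose in all 20 fits. Its Myc-off IDs were at 37.5, 42.5 and 45.5 eRPKM, above all Myc IDs (0.43, SE 0.10, adjusted p = 0.00095), and still lower than control liver (-0.30 (SE 0.10)). Ndufb11, a subunit of the membrane arm of complex I, was at 57.4, 60.4 and 80.1 eRPKM in Myc and 77.6, 81.6 and 96.4 in Myc-off IDs (0.40, SE 0.11, adjusted p = 0.0029). Atp5b rose by 0.39 (SE 0.15) and Atp5a1 by 0.32 (SE 0.13), but with depth as a term they were at -0.0025 and -0.0078. In the shallowest library Atp5b stood at 284 eRPKM, against 104 and 176 in the other libraries of that ID. Of complex IV, Cox6a1 rose by 0.38 (SE 0.13) and Cox8a by 0.37 (SE 0.11). Ndufs1, Ndufv1, Sdha, Sdhb, Uqcrc1, Cyc1, Cox4i1 and Cox5a were not called. Beside Cox6a2 the subunit that fell was Ndufab1, the mitochondrial acyl carrier protein, which also serves fatty acid synthesis. Its Myc-off IDs were at 29.2, 31.9 and 52.7 eRPKM and Myc IDs at 38.9, 47.4 and 60.8 (-0.37, SE 0.14, adjusted p = 0.027). The highest Myc-off value is that of ID150584, and the call was lost without ID151964 (-0.28, adjusted p = 0.18) or ID153344 (-0.21, adjusted p = 0.29), after median-ratio scaling (-0.30, adjusted p = 0.1) and with that scaling and the start-position correction (-0.37, adjusted p = 0.061). Of the 20 fits, Atp5a1 passed in 12, Atp5b in 13, Cox6a1 in 15, Cox8a in 17 and Ndufb11 in 19.

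Between MycVD and Myc tumours few subunits passed the test. By limma 0 of 81 were higher and 1, Cox6a2, was lower, where 6.14% of all genes were higher, 9.69% lower and 15.8% called in either direction. At an unadjusted p under 0.05, 18 were higher and 3 lower. The share of all genes at that threshold was not computed, and the adjusted shares are no background for it. The differences leaned upward: 74 of 81 were above 0, with a median of 0.16 against -0.05 for all genes, and complex medians of 0.13, 0.14, 0.17, 0.22 and 0.20 for I to V. Members are not replicates, so the number above 0 is not a test. With depth as a term the median was 0.045 against 0.0055 for all genes. Without the low-Gapdh libraries 13 were higher, and with array weights 14, again without a share of all genes from those fits. The ID numbers of MycVD tumours are all above those of Myc tumours, and those of Myc-off tumours above all others, and the groups cannot be told apart from whatever follows the order of these numbers.

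Against control liver, which both comparisons share with the first, 20 subunits were lower and 9 higher in MycVD tumours (31.1% and 49.2% of all genes, 80.2% in either direction). The median was -0.03 against 0.22 for all genes, and by complex -0.06, -0.28, -0.04, 0.08 and -0.02. In Myc-off tumours 11 were lower and 4 higher (20.9% and 37.3% of all genes, 58.3% in either direction). Here the median was -0.05 against 0.17, and by complex -0.16, -0.24, -0.07, 0.03 and 0.04. Of the 75 common subunits, 20 were lower and 5 higher in MycVD tumours, and 11 lower and 0 higher in Myc-off tumours. For the 11 common subunits of complex IV the medians were 0.02 in MycVD and -0.01 in Myc-off tumours. Ndufv3 was again the largest fall in MycVD tumours, at 24.2, 29.9 and 33.8 eRPKM (-0.83, SE 0.07, adjusted p = 8.5e-13). Uqcrq, a small subunit of complex III, was at 67.8, 76.3 and 123 eRPKM in control, 48.8, 61.6 and 78.4 in Myc, 45, 51.5 and 80.1 in Myc-off and 39.9, 50.3 and 59.6 in MycVD IDs. MycVD and control IDs did not overlap (-0.70, SE 0.10, adjusted p = 2.8e-07), and Myc-off was lower than control by 0.51 on the log2 scale. Sdha was lower than control in both (-0.42 (SE 0.08) in MycVD and -0.42 (SE 0.12) in Myc-off tumours). Cox6a2 had the largest rise over control in both, at 2.01 (SE 0.22) in MycVD and 2.19 (SE 0.33) in Myc-off tumours. Cox6b2 (1.62 (SE 0.26) and 1.68 (SE 0.39)) and Cox7a1 (1.40 (SE 0.24) and 1.96 (SE 0.35)) were higher in both as well, and these calls of the 3 isoforms passed in all 20 fits. Cox6a2 passed the filter only through tumour IDs, so its tests against control and their count of fits are descriptive. The counts of higher subunits given above include Cox6a2, and those of the common subunits do not. In MycVD tumours Ndufv2, a core subunit next to Ndufv1 (0.36 (SE 0.11)), and Ndufab1 (0.35 (SE 0.09)) were also higher. Both calls were lost after median-ratio scaling, at 0.15 (adjusted p = 0.26) and 0.14 (adjusted p = 0.18), and with the length trend removed, at 0.19 and 0.13; each passed in 17 of 20 fits. Ndufa4l2 was higher in Myc-off tumours (1.00, SE 0.37, adjusted p = 0.021), which passed in 15 of 20 fits and not without ID150584 or ID151964 (0.95 and 0.69).

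**Figure D3:**
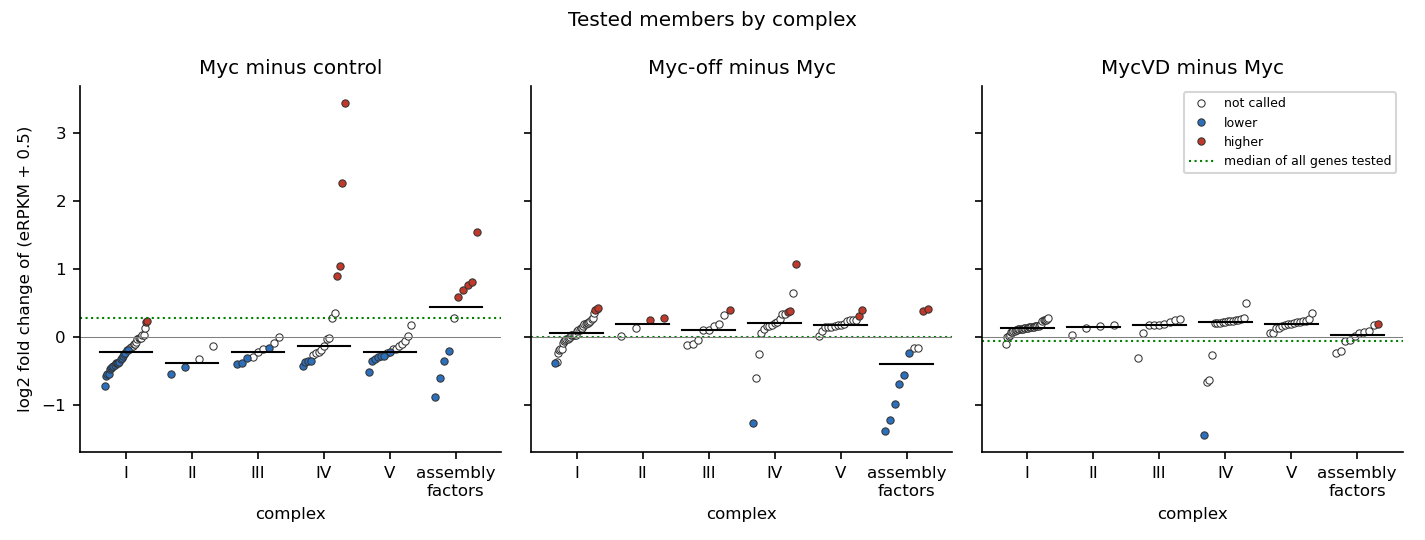
Log2 fold change of (eRPKM + 0.5) of every tested member (y axis) by complex and for the assembly or accessory factors (x axis), in 3 comparisons; 1 point is 1 gene, filled where called, and black lines are medians. In Myc against control most subunits lie near or below 0, while the assembly or accessory factors spread from -0.89 to 1.54. The medians of complex IV include 6 tissue isoforms.

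The assembly factors of complex I help to build the enzyme and are not part of it. Of the 7 Ndufaf genes, 4 were higher and 2 lower in Myc tumours than in control liver, and 6 were lower and 1 higher in Myc-off than in Myc tumours. Of all genes 50.4% were higher and 29.7% lower in the first comparison, near the shares of the 7 genes (57.1% and 28.6%), and 28.0% were lower and 22.8% higher in the second. Upstream sequences of 4 of those that fell after the switch-off are shown with Ndufv3, which rose, and Sdhb, a subunit gene that was not called in any comparison. They are the 150 bases before the start in RefSeq promoter entries (GRCm38.p6), which matched 76 of the 93 members. Capitals mark the motifs searched on both strands: the E-box CACGTG that Myc binds, the NRF1 motif GCATGCGC and the ETS motif CCGGAAG of factors such as GABP.
Ndufaf4: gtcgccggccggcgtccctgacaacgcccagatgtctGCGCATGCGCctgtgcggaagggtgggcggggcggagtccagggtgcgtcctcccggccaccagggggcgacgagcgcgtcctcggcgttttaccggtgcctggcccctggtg
Ndufaf5: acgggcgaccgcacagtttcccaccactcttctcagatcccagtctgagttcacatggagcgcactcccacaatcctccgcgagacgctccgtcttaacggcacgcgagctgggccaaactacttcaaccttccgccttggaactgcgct
Ndufaf2: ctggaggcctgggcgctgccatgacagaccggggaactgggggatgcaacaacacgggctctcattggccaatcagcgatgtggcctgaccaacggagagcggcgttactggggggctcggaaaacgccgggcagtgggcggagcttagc
Ndufaf7: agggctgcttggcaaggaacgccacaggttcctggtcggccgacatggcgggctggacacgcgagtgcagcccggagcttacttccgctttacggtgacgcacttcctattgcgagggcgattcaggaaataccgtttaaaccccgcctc
Ndufv3: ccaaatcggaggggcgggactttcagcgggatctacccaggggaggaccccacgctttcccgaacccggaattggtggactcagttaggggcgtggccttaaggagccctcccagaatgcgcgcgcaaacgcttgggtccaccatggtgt
Sdhb: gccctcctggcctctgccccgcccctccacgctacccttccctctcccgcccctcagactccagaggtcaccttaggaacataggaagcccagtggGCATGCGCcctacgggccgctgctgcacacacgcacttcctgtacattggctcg
They lie, in this order, at chr4:24897933-24898082 (plus strand), chr2:140170496-140170645 (plus strand), chr13:108158626-108158775 (minus strand), chr17:78936985-78937134 (plus strand), chr17:31519965-31520114 (plus strand) and chr4:140961121-140961270 (plus strand). In Ndufaf4 the capitals span the NRF1 motif on both strands, which overlap. The NRF1 match of Ndufaf5 and an ETS match of Sdhb are not within the 250 bases before the start but reach to or past it, and so are not in the letters shown. The letters of the 3 motifs are not in the windows of Ndufaf2, Ndufaf7 and Ndufv3, from 250 bases before to 50 after the start.

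Ndufaf5, a hydroxylase that modifies the subunit Ndufs7, was at 2.17, 2.73 and 5.16 eRPKM in control IDs and at 7.70, 9.25 and 10.5 in Myc IDs. The groups did not overlap, and Myc tumours were 2.91-fold higher on the scale of eRPKM + 0.5 (log2 difference 1.54, SE 0.14, adjusted p = 9.5e-12). Myc-off IDs, at 2.77, 3.48 and 4.95 eRPKM, were within the control range and below all Myc IDs (-1.22, SE 0.19, adjusted p = 4.8e-06). The highest control is the low-Gapdh library ID125322. The next control ID is at 3.34 eRPKM, below the Myc-off IDs at 3.48 and 4.95. MycVD IDs were at 5.83, 7.19 and 11.2 eRPKM and not called against Myc (-0.23 (SE 0.14)).

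Ndufaf4, which acts early in assembly, was at 10.5, 26.2 and 37.7 eRPKM in control and at 28.3, 30.1 and 34.5 in Myc IDs. The Myc IDs lie inside the control range, and the difference was not called (0.28, SE 0.14, adjusted p = 0.072). The lowest control is the low-Gapdh library ID125322; without the 8 low-Gapdh libraries the difference was 0.21 (adjusted p = 0.021). It was also called higher with every tumour as its own sample (adjusted p = 0.013), with ID as a random effect (0.031), with the start-position correction (0.044) and against controls of like ID (0.44, adjusted p = 0.013). Myc-off IDs were at 10.7, 11.5 and 12.5 eRPKM, below every Myc and MycVD ID and below all control IDs but that library. The difference from Myc was -1.39, SE 0.21, adjusted p = 1.4e-06, and that from control -1.11 (SE 0.19).

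Ndufaf6 was at 6.17, 7.42 and 9.97 eRPKM in control, 12, 13.3 and 14.5 in Myc, 5.41, 5.93 and 8.42 in Myc-off and 12, 13.1 and 16.6 in MycVD IDs. Myc IDs did not overlap control (0.77 (SE 0.09)) or Myc-off IDs (-0.98 (SE 0.13)). Ndufaf2, a paralogue of the subunit Ndufa12, was at 12.7, 17.8 and 22 eRPKM in control, 23.2, 26.1 and 32 in Myc and 11.6, 19.2 and 19.8 in Myc-off IDs. Ndufaf7, a mitochondrial methyltransferase, was at 9.91, 10.7 and 15.7, 16.9, 18 and 20.1 and 10.5, 13 and 13.7 eRPKM. Both had the same pattern without overlap: Ndufaf2 differed by 0.59 (SE 0.11) and -0.68 (SE 0.15), and Ndufaf7 by 0.70 (SE 0.07) and -0.56 (SE 0.10). The rise and the fall are measured from the same Myc IDs and are not independent results. The calls of Ndufaf2, Ndufaf5, Ndufaf6 and Ndufaf7 in these comparisons, and the fall of Ndufaf4, passed in all 20 fits.

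Ndufaf3, the partner of Ndufaf4, went the other way, from 21.4, 29.2 and 33.2 eRPKM in control to 14, 14.5 and 19 in Myc IDs without overlap (-0.89, SE 0.11, adjusted p = 7e-09). In Myc-off tumours it was at 17.8, 21.3 and 21.9 eRPKM, a rise of 0.42 (SE 0.15) over Myc. Ndufaf1 was lower at both steps: 29.2, 32.3 and 36.4 eRPKM in control, 20.9, 25.1 and 27.7 in Myc (-0.36 (SE 0.06)) and 18.8, 21.5 and 23.6 in Myc-off IDs (-0.23 (SE 0.09)). It was the assembly or accessory member called between MycVD and Myc tumours (0.20, SE 0.07, adjusted p = 0.038). That call was lost in 3 of 20 fits, with every tumour as its own sample (adjusted p = 0.057), ID as a random effect (0.094) or depth as a term (0.19), and its fall in Myc-off tumours passed in 13 of 20. Atp5s, a coupling factor homologue, was higher in Myc tumours than in control (0.80 (SE 0.10)) and not called after the switch-off (-0.15 (SE 0.14)). Atp5sl was lower (-0.61 (SE 0.08)). Cox7a2l, which joins complexes III and IV, was at -0.21 (SE 0.07) (0.27 after quantile normalisation) and rose by 0.38 (SE 0.10) in Myc-off tumours.

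**Figure D4:**
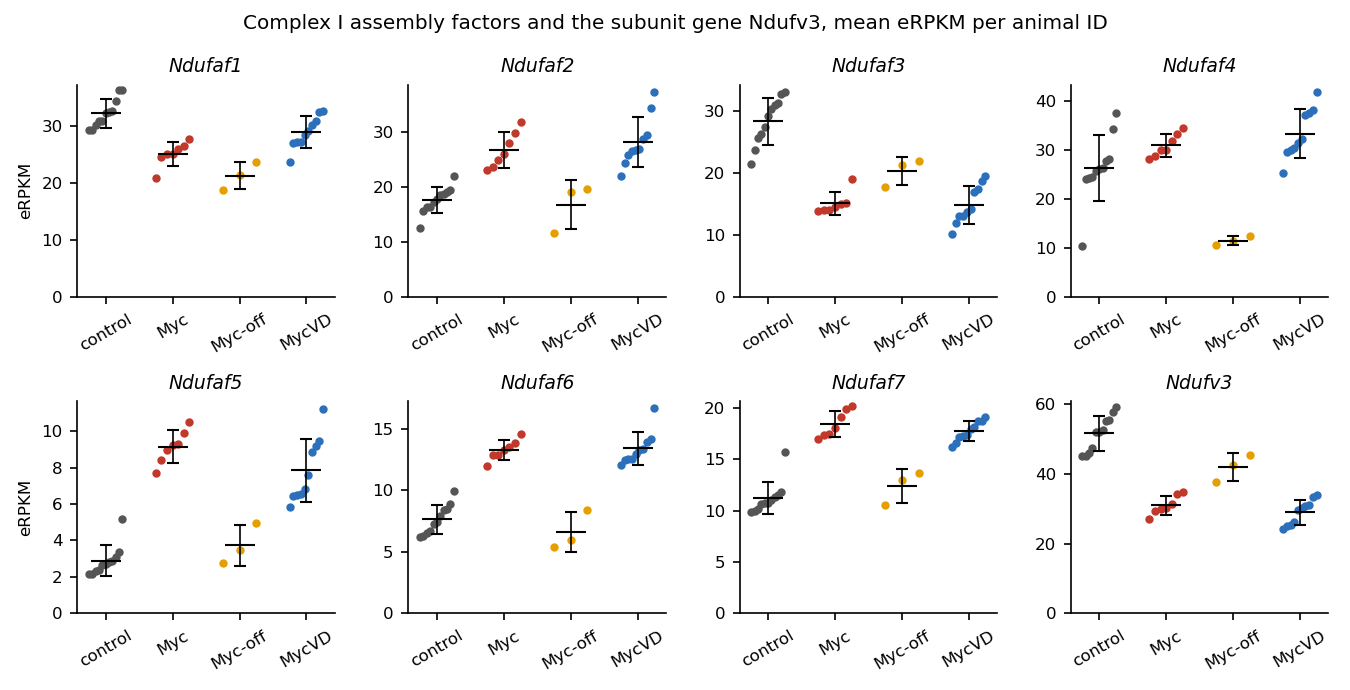
Level of the Ndufaf assembly factor genes and of the subunit gene Ndufv3, as mean eRPKM per animal ID (y axes from 0, each gene on its own scale); points are IDs, black bars and whiskers are the mean and SD. The Myc-off IDs of Ndufaf4 sit between 10.7 and 12.5 eRPKM, below all Myc IDs, and Ndufv3 is lower in Myc and MycVD than in control IDs.

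Over all matched subunit genes the NRF1 motif was in the windows of 10 of 67 (14.9%), against 3.05% of all 27025 promoters and 3.94% of the 17492 of protein-coding genes. It was in 2 of 9 assembly or accessory genes, Ndufaf4 and Ndufaf5. The ETS motif was in 16 of 67 subunit genes (23.9%), against 9.93% of all and 12.9% of protein-coding promoters. The E-box was in 6 of 67 (8.96%), against 8.09% and 8.91%; these are Atp5f1, Atp5g1, Atp5g3 and Atp5l of complex V and Ndufa7 and Ndufv1 of complex I. A match describes letters and not a bound site.

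Other genes around the chain were described from lists. The comparisons given for them use the same Myc IDs, so a rise in Myc tumours and a fall after the switch-off are not independent results. Over all genes tested 50.4% were higher and 29.7% lower in Myc tumours than in control (median 0.28), and 22.8% higher and 28.0% lower in Myc-off than in Myc tumours (median 0). Of 34 further assembly factors, 15 were higher and 4 lower in Myc tumours than in control liver (median 0.18), and 1 was higher and 15 lower in Myc-off than in Myc tumours (median -0.27). These are 44.1% and 11.8% in the first comparison and 2.94% and 44.1% in the second. Cox10, which makes a precursor of heme A for complex IV, was at 9.25, 13.9 and 17.4 eRPKM in control, 26.3, 27.1 and 28.7 in Myc and 8.99, 9.39 and 16.8 in Myc-off IDs. Its differences were 0.97 (SE 0.12) and -1.24 (SE 0.18). Ecsit, a complex I assembly factor that also serves innate immune signalling, was at 40.6, 42.5 and 45.6 eRPKM in Myc and 16.9, 20.1 and 20.7 in Myc-off IDs (-1.14, SE 0.08, adjusted p = 9.3e-13). Lyrm7, a factor for the Rieske protein of complex III, differed by 1.24 (SE 0.20) and -1.20 (SE 0.28) at levels of at most 3.95 eRPKM.

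Of 17 regulators of mitochondrial biogenesis and mitochondrial DNA, 15 were higher in Myc tumours than in control (median 0.51) and 13 lower in Myc-off than in Myc tumours (median -0.67), or 88.2% and 76.5%, against 50.4% and 28.0% of all genes. Pprc1, a coactivator of the PGC-1 family, was at 4.47, 6.35 and 8.66 eRPKM in control, 31, 40.2 and 43.5 in Myc and 6.34, 11.5 and 12.7 in Myc-off IDs. It separated Myc from both without overlap (2.52 (SE 0.11) and -1.93 (SE 0.16)). Nrf1, the factor that binds the NRF1 motif, was higher in Myc tumours than in control (1.15 (SE 0.09)) and lower in MycVD than in Myc tumours (-0.27, SE 0.09, adjusted p = 0.034). In that last comparison 3 of the 17 were lower, Ppargc1a, Polg2 and Nrf1, and 0 higher. These are 17.6% and 0%, against 9.69% and 6.14% of all genes. Gabpb1, a subunit of the ETS factor GABP, was higher in Myc tumours (0.96 (SE 0.09)). Ppargc1b (-1.66 (SE 0.32)) and Peo1, the helicase of mitochondrial DNA (-1.55 (SE 0.13)), fell after the switch-off.

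Of 19 genes of ubiquinone and the electron carriers, 9 were higher (47.4%, near the 50.4% of all genes) and 8 lower (42.1%, against 29.7%) in Myc tumours than in control. In Myc-off against Myc tumours 2 were higher and 9 lower (10.5% and 47.4%, against 22.8% and 28.0%). Pdss1, which makes the side chain of ubiquinone, was at 2.68, 3.97 and 5.47 eRPKM in control, 26.1, 28.1 and 30.5 in Myc, 6.28, 6.52 and 8.85 in Myc-off and 24.1, 26.2 and 31.3 in MycVD IDs. Dhodh, a pyrimidine synthesis enzyme that passes electrons to ubiquinone, was at 5.17, 6.34 and 10.2, 22.5, 25.2 and 27.5, 6.81, 6.88 and 7.77 and 23.3, 25.8 and 27.5 eRPKM. For both genes Myc IDs stood above all control and Myc-off IDs: Pdss1 differed by 2.73 (SE 0.10) and -1.91 (SE 0.14), and Dhodh by 1.87 (SE 0.08) and -1.74 (SE 0.12). Coq10b, a ubiquinone-binding protein, was lower in Myc tumours than in control (-1.68 (SE 0.20)).

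Of 19 genes of the citric acid cycle and pyruvate entry, 6 were higher and 5 lower in Myc tumours than in control (31.6% and 26.3%, against 50.4% and 29.7% of all genes). Idh3a, the catalytic subunit of the NAD-linked isocitrate dehydrogenase, differed by 1.08 (SE 0.09) and by -0.99 (SE 0.13) after the switch-off, and Suclg2, a subunit of succinyl-CoA ligase, was lower in Myc tumours (-0.57 (SE 0.07)). Of 9 tested genes of ATP exchange and uncoupling, 5 were higher and 1 lower (55.6% and 11.1%), the first near the share of all genes. Slc25a4, the ATP/ADP carrier known from heart and muscle, was at 6.96, 9.80 and 19.7 eRPKM in control, 76.7, 84.3 and 110 in Myc and 80.0, 96 and 109 in Myc-off IDs. Myc and control did not overlap (3.11, SE 0.12, adjusted p = 2.9e-20), and Myc-off IDs lay among the Myc IDs (0.10 (SE 0.18), not called). Ucp2, an uncoupling protein (1.83 (SE 0.12)), and Atpif1, an inhibitor of ATP hydrolysis by complex V (1.16 (SE 0.09)), were also higher in Myc tumours, and Ucp2 was lower in MycVD than in Myc tumours (-0.53, SE 0.12, adjusted p = 0.0037).

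**Figure D5:**
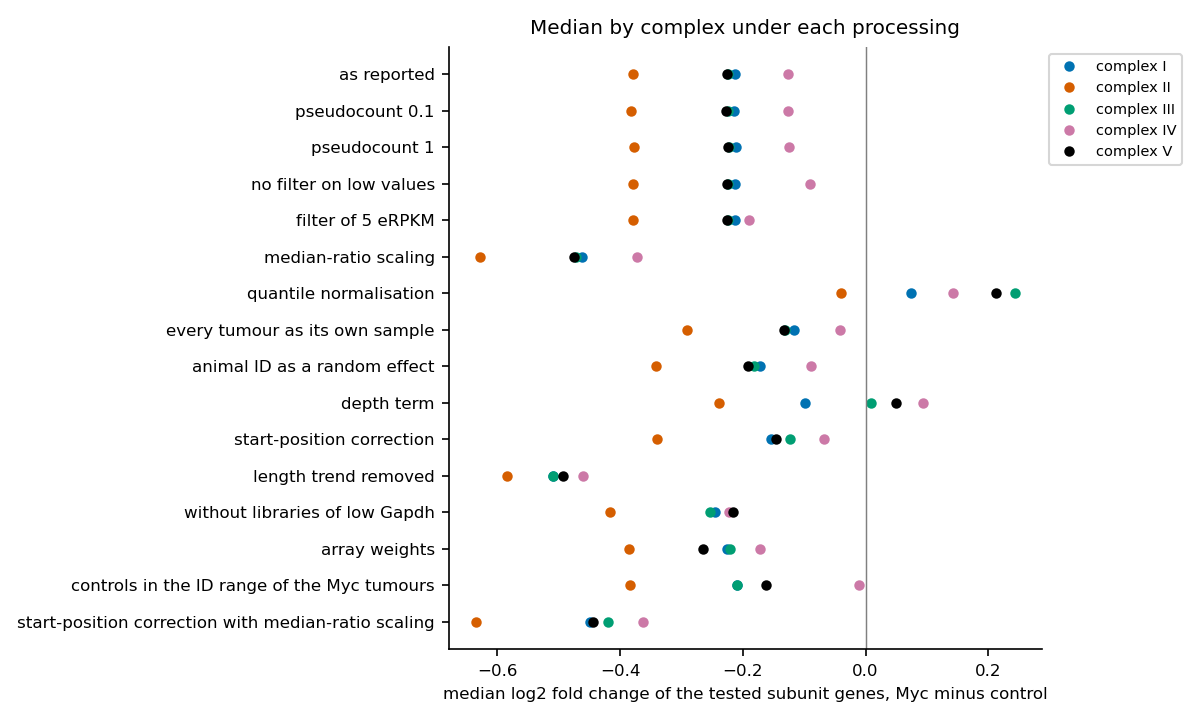
Median log2 fold change of the tested subunit genes of each complex, Myc minus control (x axis), under each way of processing (y axis); colours are complexes. Complex II has the lowest median in each of the 16 fits shown, at -0.38 as reported. The medians of complex IV include its tested tissue isoforms.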

How the data were processed

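RNA from Trizol and RNeasy extraction was depleted of ribosomal RNA and made into libraries with a kit that does not mark strand, per the labels' protocols. The authors deposited RPKM values computed from exonic reads. Per the submitters' processing notes, TopHat2 2.0.8 and mm9 were used; the sources used here give no counting rules. Because the deposited RPKM values step by whole reads, library depths and the lengths of 19465 genes were recovered from them. A gene was kept only where all its values were whole within 0.001 reads, so that fit is no check of the recovery. No step was recovered for 2206 genes. The depths were used for a covariate and for reads per kb.

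Tumours that share an ID were averaged, and log2(eRPKM + 0.5) was fitted for genes that reach 1 eRPKM in 3 or more IDs. All 4 groups entered 1 fit with limma 3.58.1 in R 4.3.3 (moderated, with trend, two-sided), with Benjamini-Hochberg adjustment over 14566 genes at 0.05; 7105 genes fell under the filter. The fit was checked on simulated data. The members and lists were chosen with earlier results of these data known. Genes named in the text are a set of core subunits and isoform pairs, the 3 largest called rises and falls of subunits at 5 eRPKM or more in a comparison, all assembly members, and up to 3 called genes of each other list; exceptions are stated. Every pair of libraries within a group differed by more than sampling noise. Alternatives covered the pseudocount, the filter, scaling, the sample unit, depth, start positions, length, low-Gapdh libraries, array weights, controls of like ID and each Myc-off ID. Counts of fits per gene are out of all 20 unless stated. Fits that leave out only Myc-off libraries, or only some controls, leave the groups of some comparisons unchanged. The fits that bear on a comparison number 16 for Myc or MycVD against control, 19 for Myc-off against Myc and 15 for MycVD against Myc. Of the members, 8 share over 20% of exon bases with another gene, and near-identical copies can share reads; such values are uncertain.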

Additional observations from a re-analysis of the deposited data

Results flagged for a closer look

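Among 152 groups of IDs, over 76 genes, 7 held an ID that stood far from the others of its group. Chance alone marks about 1 in 20 groups, and the share flagged is not above that rate. The rule did not cover the 11 control IDs or the 3 Myc-off IDs. Among the members, Ndufaf3 in Myc ID125320 was at 19 eRPKM, with the next ID at 15.2. Ndufaf6 in MycVD ID133079 was at 16.6 eRPKM, with the next ID at 14.2. Cox6b2 in MycVD ID133074 was at 7.35 eRPKM, with the next ID at 4.43. Ucp2, the uncoupling protein gene, is a listed gene and not a member. It was highest in the same ID, at 34.1 eRPKM, with the next ID at 23.6. ID133074 and ID133079 are the MycVD libraries of low Gapdh, and the part of this in their values was not tested. Among the listed genes, Cox18, a factor that inserts a complex IV subunit into the membrane, was highest in Myc ID126947, at 17.4 eRPKM, with the next ID at 15.3. Lyrm7 in Myc ID128992 was at 3.95 eRPKM, with the next ID at 2.26. Polg2, the accessory subunit of the mitochondrial DNA polymerase, was highest in MycVD ID134668, at 15.4 eRPKM, with the next ID at 13.3.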

How the results depend on the processing

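The causes of the changes given here were not tested. Shares of all genes called were computed for the reported fit only, so counts under other settings have no share beside them. No paired analysis was possible because replicate numbers were given in accession order and pair no samples. The subunits' median minus that of all genes ran from -0.54 to 0.0827 in Myc against control, from -0.12 to 0.22 in Myc-off against Myc and from 0.0396 to 0.24 in MycVD against Myc. Of the values of named genes under other settings, 3589 kept their side of the threshold and any called direction, 157 lost a call, 112 gained one and 40 reversed. The 3589 include 173 values that changed sign but were called neither as reported nor under the other setting. After quantile normalisation, Myc against control had 30 higher subunits and 8 lower subunits, medians of 0.0735 (I), -0.0402 (II), 0.24 (III) and 0.21 (V), reversed values of 0.0077 for Ndufv1, 0.24 for Uqcrc1, 0.28 for Cyc1, 0.18 for Cox4i1, 0.26 for Atp5a1, 0.27 for Atp5b, 0.21 for Atp5g1, 0.37 for Atp5g3, 0.0941 for Cox6a1, 0.14 for Cox8a, 0.0691 for Ndufa4 and 0.27 for Cox7a2l. In Myc-off against Myc this gave 5 higher subunits and 8 lower subunits, medians of -0.0493 (II), reversed values of -0.0371 for Atp5b. The setting gave 2 lower subunits, reversed values of -0.0045 for Slc25a5 in MycVD against Myc. MycVD against control had 44 higher subunits and 9 lower subunits, medians of -0.0106 (II), 0.28 (III) and 0.26 (V), reversed values of 0.28 for Uqcrc1, 0.20 for Cyc1, 0.23 for Cox4i1, 0.28 for Atp5a1, 0.28 for Atp5b, 0.26 for Atp5g1, 0.12 for Cox6a1, 0.21 for Cox8a and 0.29 for Cox7a2l. In Myc-off against control this gave 19 higher subunits and 1 lower subunit, medians of -0.0203 (II) and 0.14 (III), reversed values of 0.0088 for Ndufv1, 0.23 for Cox4i1, 0.20 for Atp5g1, 0.23 for Atp5g3 and 0.19 for Cox6a1. With the length trend removed, Myc against control had 2 higher subunits and 71 lower subunits, medians of -0.51 (I), -0.58 (II), -0.51 (III), -0.46 (IV) and -0.49 (V), reversed values of -0.28 for Ndufs1 and -0.30 for Atp5g2. Myc-off against Myc had 19 higher subunits. In MycVD against Myc this gave 2 higher subunits and 2 lower subunits. The setting gave 3 higher subunits and 56 lower subunits, medians of -0.38 (I), -0.47 (II), -0.31 (III), -0.22 (IV) and -0.23 (V), reversed values of -0.18 for Atp5g2 and -0.23 for Atp5g3 in MycVD against control. Myc-off against control had 41 lower subunits, medians of -0.41 (I), -0.31 (III) and -0.23 (V), reversed values of -0.30 for Cox8a. After median-ratio scaling, Myc against control had 64 lower subunits, medians of -0.46 (I), -0.63 (II), -0.47 (III) and -0.48 (V). The setting gave 1 lower subunit in Myc-off against Myc. MycVD against control had 3 higher subunits and 42 lower subunits, medians of -0.26 (I), -0.48 (II), -0.24 (III) and -0.23 (V). In Myc-off against control this gave 23 lower subunits, medians of -0.42 (II) and -0.25 (III). With depth as a term, Myc against control had 11 lower subunits, medians of 0.009 (III) and 0.0495 (V), reversed values of 0.0113 for Cyc1, 0.0458 for Atp5a1, 0.0721 for Atp5b, 0.007 for Atp5g1 and 0.0345 for Cox7a2l. Myc-off against Myc had 3 higher subunits, medians of -0.0217 (II) and -0.0484 (V), reversed values of -0.0078 for Atp5a1 and -0.0025 for Atp5b. In MycVD against Myc this gave medians of 0.0126 (V). The setting gave 14 higher subunits and 13 lower subunits in MycVD against control. After the start-position correction with median-ratio scaling, chosen after seeing the data, Myc against control had 55 lower subunits, medians of -0.45 (I), -0.63 (II) and -0.44 (V). In Myc-off against Myc this gave 1 lower subunit. The setting gave 3 higher subunits and 34 lower subunits, medians of -0.27 (I), -0.52 (II), -0.23 (III) and -0.22 (V) in MycVD against control. Myc-off against control had 25 lower subunits, medians of -0.37 (I), -0.48 (II), -0.29 (III) and -0.16 (V). After the start-position correction, Myc-off against Myc had 4 higher subunits. The setting gave 2 lower subunits in MycVD against Myc. MycVD against control had 15 higher subunits. Without the low-Gapdh libraries, Myc-off against Myc had 24 higher subunits. The setting gave 13 higher subunits and 2 lower subunits in MycVD against Myc. With array weights, Myc-off against Myc had 18 higher subunits and 6 lower subunits. In MycVD against Myc this gave 14 higher subunits and 4 lower subunits. The setting gave 18 lower subunits in Myc-off against control. Without the shallowest Myc-off library, chosen after seeing the data, Myc-off against Myc had 4 higher subunits. With every tumour as its own sample, Myc-off against Myc had 7 lower subunits. The setting gave 3 lower subunits in MycVD against Myc. With controls in the ID range of the Myc tumours, Myc-off against control had 7 lower subunits. Leaving out each Myc-off ID in turn gave 2 to 11 higher in Myc-off against Myc, 1 to 5 lower in Myc-off against Myc and 3 to 17 lower in Myc-off against control. Depth limits the tissue isoforms, several of which lie near 1 eRPKM, and the 3 Myc-off IDs limit all comparisons with that group.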
